A study of Drosophila melanogaster with 12 samples.

Results

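Ovaries of Drosophila melanogaster females labelled Tdrd5l mutant were compared with ovaries of control females labelled cas9 iso. The comparison held 6 of the 12 libraries of the series, 3 per genotype, chosen by the genotype and sex in their labels. The ovaries came from females 0 to 1 day old raised at 25 °C, and each library was made from 200 ng of RNA after poly(A) selection. The labels call the 3 samples of a genotype biological replicates. The sources used here do not give the lesion in Tdrd5l, the history of the control line or the number of animals per sample. The other 6 libraries came from testes of the same genotypes, from males 1 to 2 days old, after ribosomal RNA depletion, so RNA selection cannot be told apart from tissue.

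Tudor domain proteins bind methylated arginines on partner proteins and gather RNA and protein into cytoplasmic granules of germ cells. Several of them act in the piRNA pathway, which silences transposons in the germ line. Tdrd5l is a Tudor domain gene known for stronger expression in male than in female germ cells, and the ovary is the tissue in which its level is low. An ovary holds germ cells (stem cells, nurse cells and oocytes) inside somatic follicle cells, with a sheath of muscle around each string of egg chambers. Nurse cells load the oocyte with mRNAs such as osk, grk and bcd, whose localisation and translation set the axes of the embryo.

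The 6 ovary libraries held 772292 to 1647933 counts in genes, and 8345 to 10418 genes had at least 1 count. Reads outside any gene or aligned to several places made up 96.9% to 98.2% of all reads in the count tables, and reads in no gene alone 89.3% to 92.5%, so the gene counts rest on a small part of each library. The strand setting of the counting is not among the sources used here, and what part it has in this share was not tested. All levels below, of genes with or without a gene on the other strand, are those of the counts as deposited. Testis germ line genes at 0 counts in all 6 ovary libraries were Mst87F, Mst84Da, ProtA, can and aly. Others were not at 0 throughout: dj had 0 to 4 counts and betaTub85D 0 to 3. Of 37 listed testis germ cell genes 18 had a count in some ovary library. Germ line genes of the ovary varied in level. The gene ovo had 54 to 377 counts and piwi 136 to 549, but aub had 7 to 170, AGO3 5 to 102, otu 0 to 137 and bam 0 to 10. The highest count of each was in mutant replicate 2, the library with the most gene counts. Without that library aub had 7 to 21, AGO3 5 to 26 and otu 0 to 20. Most eggshell genes of late follicle cells were low, but not all were at 0. Cp16 and Cp19 had 0 counts in every ovary library, Cp36 had 2 to 21 and Cp38 had 5 to 14, and Vm26Ab had 31 counts in mutant replicate 2 and 0 in the others. Of 26 listed chorion genes 20 had a count in some ovary library, and their summed level per 1000000 gene counts, after edgeR's scaling, was 2222 to 3870; clos, named here after its value was seen, made up most of it in every library. These are bulk samples, in which fewer cells of a type and less RNA per cell cannot be told apart.

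Mutant replicate 2 stood apart from the other ovary libraries. Genes without an exon of another gene on the opposite strand held 9.46%, 32.5% and 8.90% of the counts in mutant replicates 1 to 3, and 17.6%, 12.1% and 10.5% in control replicates 1 to 3. The group means were 17.0% ± 13.5 (SD, n = 3) in mutants and 13.4% ± 3.74 (SD, n = 3) in controls, with p = 1 by an exact two-sided permutation test, whose smallest possible p is 0.1 with 3 libraries against 3. Without mutant replicate 2 the difference of the means (mutant minus control) turned from 3.55 to -4.23 percentage points. On the first principal component, which took 63.2% of the variance, mutant replicate 2 (83.9) and control replicate 1 (29.9) lay on one side and the other 4 libraries on the other. Across genes tested, the rank correlation was 0.924 between mutant replicates 1 and 3 but 0.563 and 0.509 between mutant replicate 2 and each of them. The nearest library to mutant replicate 2 was control replicate 1, at 0.795.

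Genes of ribosomes and muscle moved with this share, and most of them are counted in it. An opposite exon was present in 23 of 86 listed ribosomal protein genes and 3 of 20 muscle sheath genes. Their moving with the share is therefore in part built in. The summed level of 86 cytoplasmic ribosomal protein genes, in counts per 1000000 gene counts with edgeR's scaling by the trimmed mean of M values (TMM-scaled CPM, the unit of all levels below unless another is named), was 6192, 70571 and 5280 in mutant replicates 1 to 3 and 22021, 5590 and 7886 in control replicates 1 to 3. The summed level of 20 muscle sheath genes was 599, 5464 and 667 in the mutants and 3449, 1206 and 1227 in the controls. In both sums mutant replicate 2 was the highest library and control replicate 1 the second highest, and the 2 groups overlapped. What set these libraries apart was not tested, and results are given below with and without mutant replicate 2.

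**Figure D1:**
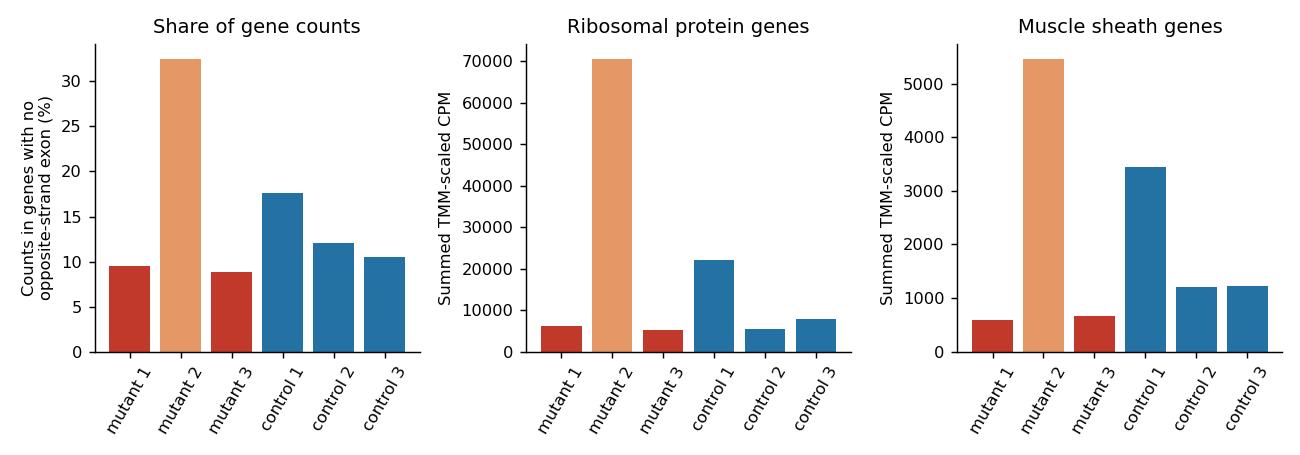
Bars show, for each of the 6 ovary libraries, the percent of gene counts in genes without an exon on the opposite strand (left) and the summed TMM-scaled CPM of cytoplasmic ribosomal protein genes (middle) and of muscle sheath genes (right). Mutant replicate 2 is the tallest bar in each panel (32.5%, 70571 and 5464) and control replicate 1 the next (17.6%, 22021 and 3449).

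Tdrd5l itself (FBgn0029754, named CG15930 in the annotation, X:5315130-5317295 on build BDGP6, minus strand) was low in every ovary library. It had 12, 8 and 11 counts in mutant replicates 1 to 3 and 9, 4 and 6 counts in control replicates 1 to 3. Per 1000000 gene counts the level was 10.03 ± 4.52 (SD, n = 3) in mutants and 7.27 ± 2.30 (SD, n = 3) in controls, and the exact two-sided permutation test gave p = 0.4. The groups overlapped over the 6 libraries. Without mutant replicate 2 both mutants were above all controls, a lack of overlap found for 39.3% of all genes tested. The exact permutation test then gave p = 0.1, its smallest possible value. The log2 fold change (mutant over control) without mutant replicate 2 was 1.05 ± 0.68 (SE), with an adjusted p of 0.424 in edgeR's quasi-likelihood test. A lesion that leaves the transcript in place would not be seen in gene counts, so these values do not check the genotype labels.

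Over all 6 libraries no gene was called. Of 4683 genes that passed the filter on low counts, 0 had a Benjamini-Hochberg adjusted p under 0.05 in edgeR's quasi-likelihood test, which is 0% of the genes tested. An unadjusted p under 0.05 was reached by 184 genes (3.93%), limma-voom called 0 and DESeq2 called 14 (0.299%). The smallest adjusted p was 0.0768, shared by teq and stops. The groups did not overlap for 467 genes (9.97%).

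Without mutant replicate 2 the same test called 55 of 4826 genes (1.14%), of which 33 rose (0.684%) and 22 fell (0.456%) in the mutants. With library size alone as the scaling, the call was 22 genes, 8 higher and 14 lower, so the count and its split depended on the scaling; that scaling moved the median log2 fold change of all genes from -0.09 to -0.37. In 32 of the 55 genes mutant replicate 2 lay on the same side of all controls as the other mutants, 22 of them higher and 10 lower. Among all genes tested, the groups did not overlap for 9.97% over 6 libraries and for 39.3% (1895 genes) without mutant replicate 2. The 55 genes were called from the other 5 libraries, so a lack of overlap among those libraries is no separate support. In a further fit mutant replicate 2 was kept and the share of counts in genes without an opposite exon was added as a term. It called 92 genes (1.96%), 44 higher (0.94%) and 48 lower (1.02%), and 48 of the 55 were among them. That fit holds the same libraries that gave the 55 calls, so the overlap is no independent check. With the term added but mutant replicate 2 left out, 14 of the 55 stayed called and 41 did not. Below, "rose" and "fell" refer to calls made without mutant replicate 2, and the level in mutant replicate 2 is given beside those of each gene described in full.

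**Figure D2:**
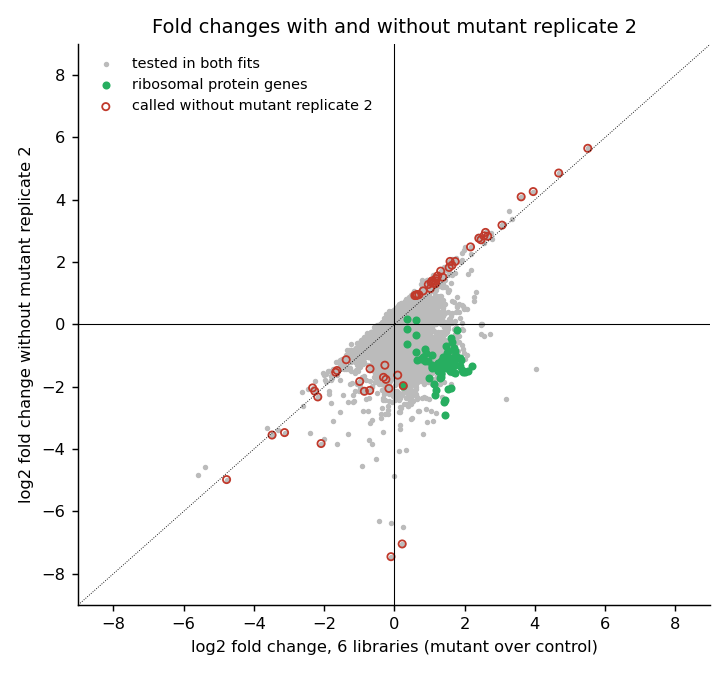
Each point is a gene, with its log2 fold change over 6 libraries on the horizontal axis and without mutant replicate 2 on the vertical axis; red rings mark the 55 called genes and green points the ribosomal protein genes. The ribosomal protein genes lie to the right of 0 over 6 libraries (median 1.42) and mostly under 0 without mutant replicate 2 (median -1.29), while stops and teq at the lower left and lncRNA:CR45179 at the upper right keep their place.

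The clearest falls were in genes that mutant replicate 2 shared with the other mutants. The gene stops (FBgn0086704, 3R:31158156-31169106) encodes a protein known from photoreceptors, where it keeps the phospholipase of the light response stable. Its level was 5.18, 4.56 and 1.26 in mutant replicates 1 to 3 and 88.3, 120 and 112 in control replicates 1 to 3. All 3 mutants were far under all controls. The log2 fold change was -4.98 ± 0.53 (SE) without mutant replicate 2, with an adjusted p of 0.000611, and -4.78 ± 0.53 over 6 libraries, with an adjusted p of 0.0768. The gene teq (FBgn0023479, 3L:9074643-9092131) encodes Tequila, a secreted serine protease. Its level was 11.7, 19.4 and 21.4 in the mutants and 200, 240 and 154 in the controls. The groups were again apart, with a log2 fold change of -3.55 ± 0.37 and an adjusted p of 0.000611. The gene stops has an exon of another gene on the opposite strand, so its counts are uncertain. The gene teq has no such exon, but its counts rest on the same unknown strand setting. Both genes stayed called when any 1 of the remaining 5 libraries was left out.

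The neighbouring genes CG31955 and CG2818 on 2L, 254 bases apart on opposite strands, fell together. CG31955 (2L:3711881-3713105) was at 6.48, 26.2 and 22.6 in mutant replicates 1 to 3 and 125, 194 and 176 in control replicates 1 to 3. CG2818 (2L:3713360-3716810) was at 2.59, 25.1 and 3.77 in the mutants and 38.4, 61.1 and 43.4 in the controls. Both were lower in every mutant than in every control, with mutant replicate 2 the highest mutant. Their log2 fold changes were -3.47 ± 0.48 (adjusted p = 0.0059) and -3.82 ± 0.59 (adjusted p = 0.00922). Without control replicate 3 the adjusted p of CG31955 was 0.0603. CG2818 has an exon of another gene on the opposite strand, so its counts are uncertain. CG31955 has no such exon, but its counts rest on the same unknown strand setting.

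Abl (FBgn0000017, 3L:16615866-16647882), a tyrosine kinase that acts on the actin cytoskeleton, was the most abundant gene that fell. Its level was 2525, 1195 and 2414 in the mutants and 10211, 14173 and 6442 in the controls, without overlap. Abl has no exon of another gene on the opposite strand. It stood among the most counted features of these libraries, most of which were antisense RNA features. Its level rests on the unknown strand setting of the counting, and whether these counts are of Abl mRNA was not tested. The log2 fold change was -2.04 ± 0.31, with an adjusted p of 0.0174 and of 0.209 once control replicate 1 was left out. About 28.5 kb away lies Lasp (3L:16676406-16711677), which encodes an actin-binding protein with LIM and SH3 domains, and the locus of lncRNA:CR45179 (3L:16689268-16697897) lies within the span of Lasp on the other strand. Lasp was at 49.2, 22.8 and 33.9 in the mutants and 9.59, 2.40 and 6.58 in the controls, a log2 fold change of 2.72 ± 0.58 (adjusted p = 0.0464). Its adjusted p was 0.201 when mutant replicate 1 was left out, 0.088 when control replicate 2 was, and 0.113 when control replicate 3 was. The non-coding RNA lncRNA:CR45179 was at 93.3, 67.3 and 106 in the mutants and 3.84, 0 and 1.32 in the controls, where it had 4, 0 and 1 counts. It had the largest fitted rise of the 55 genes, with a log2 fold change of 5.65 ± 0.59 (adjusted p = 0.000611), and stayed called without any 1 of the 5 libraries. Abl was thus lower and Lasp and lncRNA:CR45179 higher in all 3 mutants than in all 3 controls.

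Further falls without overlap over 6 libraries were CG3038, CG12713, Ac3, Tsp42Ep and Cyt-c-d. CG3038 was at 7.77, 17.1 and 17.6 in mutant replicates 1 to 3 and 71, 57.5 and 67.1 in control replicates 1 to 3, with an adjusted p of 0.0295. CG12713 was at 13, 13.7 and 21.4 in the mutants and 73.9, 81.5 and 76.3 in the controls, with an adjusted p of 0.023. Cyt-c-d, a cytochrome c known for its role in sperm individualisation, was at 342, 197 and 342 in the mutants and 763, 827 and 689 in the controls, with a log2 fold change of -1.13 ± 0.19 (adjusted p = 0.0174). Ac3, an adenylyl cyclase that makes cyclic AMP, was at 64.8, 50.7 and 67.9 against 158, 272 and 154, and Tsp42Ep, a tetraspanin membrane protein, at 95.9, 74.7 and 108 against 301, 326 and 238. In each of these genes the mutants were under the controls in every library. Cyt-c-d and Tsp42Ep have another gene opposite 36.4% and 30.7% of their exon bases, so part of their counts is uncertain. CG12713 also has an exon of another gene on the opposite strand. Ac3, Tsp42Ep, Cyt-c-d, CG12713 and CG3038 were each no longer called without control replicate 2, with adjusted p of 0.0888, 0.0545, 0.0545, 0.0585 and 0.0571, in that order. Leaving out mutant replicate 1 also ended all 5 calls, with adjusted p of 0.079, 0.0644, 0.111, 0.125 and 0.15.

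In the other 12 genes that fell, mutant replicate 2 was within or above the control range. RpL5, a protein of the large ribosomal subunit that carries 5S RNA, was at 72.6, 1096 and 108 in mutant replicates 1 to 3 and 415, 280 and 379 in control replicates 1 to 3. Its log2 fold change was -1.97 ± 0.27 without mutant replicate 2 (adjusted p = 0.0046) and 0.25 over 6 libraries. The 14-3-3 proteins, adaptors that bind phosphorylated partners and act in oocyte polarity, showed the same split: 14-3-3epsilon was at 139, 752 and 114 against 483, 336 and 433, and 14-3-3zeta at 64.8, 523 and 65.4 against 299, 153 and 162. The fall of 14-3-3zeta had an adjusted p of 0.0393, and of 0.0823 without control replicate 3. In all 3 genes mutant replicate 2 was the highest of the 6 libraries.

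Profilin and muscle genes followed the same course. The gene chic encodes profilin, which nurse cells need for the actin bundles that hold their nuclei during dumping, and it was at 68.7, 369 and 41.5 in the mutants and 239, 162 and 170 in the controls. Its fall of -1.76 ± 0.32 on the log2 scale had an adjusted p of 0.0235, which was 0.0977 without mutant replicate 3 and 0.0679 without control replicate 3. The gene bt encodes projectin, a giant protein of muscle, and was at 27.2, 267 and 30.2 against 190, 81.5 and 93.4. It fell by 2.06 on the log2 scale (adjusted p = 0.0393, and 0.0844 without control replicate 3), beside the muscle sheath sums given above. The rest, which are fax, ps, Gbeta13F, CG34417 and OtopLa, had log2 fold changes from -2.15 (ps, an RNA-binding splicing regulator) to -1.31 (Gbeta13F, a G protein beta subunit) without mutant replicate 2. In mutant replicate 2 fax was at 516, ps at 81.5, Gbeta13F at 323, CG34417 at 123 and OtopLa at 78.1, against control ranges of 351 to 630, 47.3 to 90.2, 167 to 224, 57.9 to 119 and 65.9 to 117. Of these 5 genes fax alone stayed called without any 1 of the 5 libraries. Gbeta13F and OtopLa kept their call in 1 of the 5 fits, the one without control replicate 1, with 0.239 and 0.124 as the highest adjusted p. The call of ps was lost without mutant replicate 1 (adjusted p = 0.112), control replicate 2 (0.0831) or control replicate 3 (0.0506), and that of CG34417 without control replicate 2 (0.0694). Of these 12 genes all but Cdc37 have no exon on the opposite strand, and among all genes tested without mutant replicate 2 those without such an exon had a median log2 fold change of -0.62 against 0.09 for those with one.

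A pair of the falls rested on zero counts. Cdc37, which brings kinases to the chaperone Hsp90, had 0 counts in mutant replicates 1 and 3 and 73 counts over the 3 controls, so it was at least 14.5-fold lower when the floor of 3 counts over the group is used. CanB2, a regulatory subunit of the phosphatase calcineurin, which acts in egg activation, had 0 counts in mutant replicates 1 and 3 and 53 counts over the controls, at least 10.5-fold lower. In mutant replicate 2, however, Cdc37 was at 70.1 and CanB2 at 65.5, above every control. The adjusted p of CanB2 was 0.0393, and 0.0603 without control replicate 3.

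The rises were mostly in genes with an exon of another gene on the opposite strand. The share of genes called was alike with an opposite exon (33 genes, 1.17% of those tested) and without (22 genes, 1.15%), but the directions were not. Of 33 genes that rose, 27 had such an exon, and these were 0.956% of the 2824 tested genes of that kind; 6 had none, which is 0.315% of 1905. All 11 antisense RNA features called (of 349 tested) rose. Falls were placed the other way, with 6 in genes that had an opposite exon (0.212%) and 16 in genes that had none (0.84%). The median log2 fold changes of all tested genes differed likewise, at 0.09 with an opposite exon and -0.62 without. When genes without an opposite exon were scaled and tested alone, 27 of 1643 were called, 23 higher and 4 lower. The split of rises and falls between the 2 kinds of gene thus depended on the scaling. Antisense RNA features held 31.3% to 53.5% of the gene counts in the ovary libraries. Where at least 50% of an antisense feature's exon bases lay opposite 1 gene, the antisense feature had more counts per exon base than its partner in 88.0% to 90.1% of 232 to 241 pairs per library. The median log2 ratio of these densities was 5.26 in mutant replicate 2 and 6.34 to 7.39 in the other libraries. The labels name a TruSeq kit, which is known not to mark strand. The deposited counts were nevertheless far from even between antisense features and their partners, as the ratios above show. How this came about was not tested. Which strand the deposited counts follow is not known from the sources used here, so the values of genes and antisense features that overlap are uncertain, and those of other genes rest on the same unknown setting.

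The antisense feature asRNA:CR45016 (3R:10761148-10761797) had the smallest adjusted p of all genes tested. It was at 1942, 781 and 2246 in mutant replicates 1 to 3 and 308, 260 and 254 in control replicates 1 to 3. The log2 fold change was 2.95 ± 0.19, with an adjusted p of 9.29e-06, and 2.59 over 6 libraries. Its partner Cap-H2, a condensin II subunit known to unpair the chromosomes of nurse cells, lies opposite 51.2% of its exon bases and rose as well, from 174, 185 and 224 in the controls to 539, 359 and 408 in the mutants (log2 fold change 1.31 ± 0.22, adjusted p = 0.0174). All 3 mutants were above all controls for both features. The rise of Cap-H2 had an adjusted p of 0.082 without mutant replicate 1 and of 0.0565 without control replicate 2, while asRNA:CR45016 stayed called without any 1 of the 5 libraries.

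In other pairs the partner had a value in the other direction. CG6661 (3L:14034776-14036751), whose exons lie wholly opposite asRNA:CR42871, was at 275, 108 and 319 in the mutants and 33.6, 52.7 and 46 in the controls, a log2 fold change of 2.77 ± 0.28 (adjusted p = 0.000611). Its partner asRNA:CR42871 was at 37.6, 41.6 and 28.9 against 76.7, 99.5 and 88.1, with a log2 fold change of -1.39 ± 0.34 and an adjusted p of 0.079, so it was not called. The feature mir-4948 (3R:31051098-31051203), a microRNA hairpin locus opposite an exon of the alkaline phosphatase gene Alp4, was at 216, 37.6 and 171 in the mutants and 4.80, 16.8 and 13.2 in the controls. Its log2 fold change was 4.09 ± 0.43 (adjusted p = 0.000619); these are reads of a poly(A) library over the hairpin, not mature microRNA. Alp4 was at 10.4, 6.84 and 5.03 against 28.8, 24 and 32.9, a log2 fold change of -1.85 ± 0.57 with an adjusted p of 0.141. In all 4 features the mutants and controls did not overlap.

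Among the other called antisense features, asRNA:CR44020 lies opposite 5.65% of the exon bases of osk, the determinant of germ plasm. It was at 8723, 3462 and 7350 in the mutants and 2336, 3318 and 4349 in the controls, with mutant replicate 2 inside the control range. Its log2 fold change was 1.28 ± 0.26 without mutant replicate 2, with an adjusted p of 0.043, and of 0.0888 once control replicate 2 was also left out. A pair of features opposite the gene Arms, asRNA:CR44724 and asRNA:CR45149, also rose. Mutant replicate 2, at 179 and 455, lay inside the control ranges of 119 to 191 and 411 to 496; neither was called without mutant replicate 1 (adjusted p = 0.138 and 0.207) or control replicate 2 (0.0851 and 0.0887). The least abundant called features were asRNA:CR44358, with 39 counts in mutant replicates 1 and 3 against 3 in the controls (ratio of the scaled levels 21.9, with a 95% counting interval of 6.95 to 111), and asRNA:CR46047, with 41 against 2 (ratio 34.5, interval 8.96 to 294). Mutant replicate 2 had 20 and 30 counts of them. Neither was called without mutant replicate 1 (adjusted p = 0.0801 and 0.222), mutant replicate 3 (0.379 and 0.0592) or control replicate 3 (0.0668 and 0.0603), nor asRNA:CR44358 without control replicate 2 (0.0836). These intervals cover counting error only.

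Protein-coding genes that rose without overlap over 6 libraries included Tbcc, a cofactor that folds tubulin, at 41.5, 38.8 and 60.3 in the mutants and 8.63, 3.6 and 3.95 in the controls (log2 fold change 3.18 ± 0.53, adjusted p = 0.0151). Its neighbour 156 bases away on the same strand of 2L, lncRNA:CR45791, was at 92.0, 32.5 and 42.7 against 9.59, 13.2 and 5.26 (log2 fold change 2.84 ± 0.50, adjusted p = 0.0207). Both neighbours were higher in every mutant than in every control. The adjusted p of Tbcc was 0.0555 without control replicate 2 and 0.0789 without control replicate 3, and that of lncRNA:CR45791 was 0.171 without mutant replicate 1 and 0.0832 without control replicate 3. Fdx1, a mitochondrial ferredoxin, was at 71.3, 40.5 and 51.5 against 16.3, 5.99 and 2.63, and Taf3, a subunit of the general transcription factor TFIID, at 495, 372 and 461 against 202, 229 and 222. CG2930 was at 411, 195 and 328 against 134, 92.3 and 89.4 and stayed called without any 1 of the 5 libraries. The adjusted p of Fdx1 was 0.0888 without control replicate 2 and 0.102 without control replicate 3, and that of Taf3 was 0.0673 without mutant replicate 1.

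In 11 genes that rose, mutant replicate 2 was inside or under the control range. Cks85A, a small subunit that binds cyclin-dependent kinases, was at 3173, 1472 and 3312 in mutant replicates 1 to 3 and 1446, 1688 and 2009 in control replicates 1 to 3. Its log2 fold change was 0.93 ± 0.20 (adjusted p = 0.0464), and 0.63 over 6 libraries. Cks85A has another gene opposite 74.9% of its exon bases and Atg4a, a protease of autophagy, opposite 51.5%, and the counts of both are uncertain. Atg4a was at 217.7, 64.4 and 185 against 55.6, 73.1 and 57.9, with an adjusted p of 0.012 and of 0.053 without control replicate 3. The mitochondrial gene mt:ND4L, a subunit of respiratory complex I, was at 666, 283 and 669 against 413, 336 and 316, with a log2 fold change of 0.93 ± 0.19 (adjusted p = 0.0413). Cks85A and mt:ND4L were not called with library size alone as the scaling, under which 19 of the 55 genes were still called. They were each not called without mutant replicate 1 (adjusted p = 0.0859 and 0.134), mutant replicate 3 (0.109 and 0.127) or control replicate 2 (0.0908 and 0.0888), nor mt:ND4L without control replicate 3 (0.0993).

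**Figure D3:**
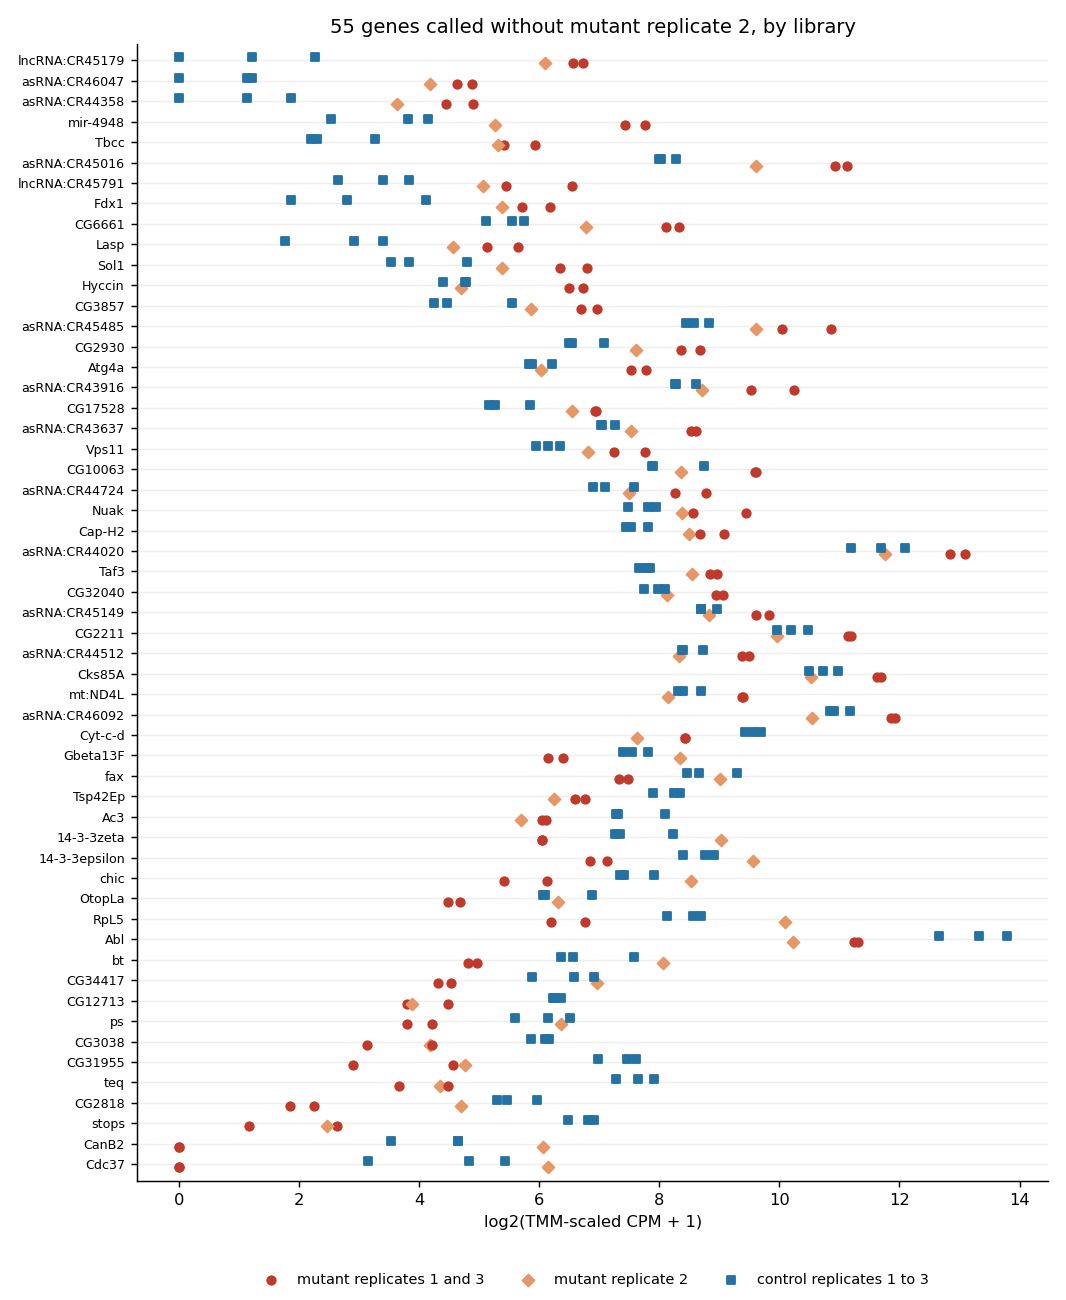
Each line is 1 of the 55 genes called without mutant replicate 2, ordered by log2 fold change, with its log2(TMM-scaled CPM + 1) in mutant replicates 1 and 3 (circles), mutant replicate 2 (diamonds) and the controls (squares). Near the bottom stops and teq and at the top lncRNA:CR45179 have all 3 mutants on 1 side of all controls. For Cdc37 and CanB2, at the very bottom, and for RpL5, bt and chic the diamond lies above every square.

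Oocyte mRNAs with long-known roles in axis formation gave no call with or without mutant replicate 2. The gene osk was at 75.1, 605 and 32.7 in mutant replicates 1 to 3 and 101, 39.6 and 44.7 in control replicates 1 to 3, a log2 fold change of 1.95 over 6 libraries and -0.17 without mutant replicate 2. The ligand gene grk, which signals from oocyte to follicle cells, was at 170, 102 and 201 against 258, 292 and 216. Here the groups did not overlap, but the log2 fold change of -0.70 ± 0.35 (-0.45 ± 0.23 without mutant replicate 2) had an adjusted p of 0.999 and 0.329. The anterior determinant bcd had 2, 24 and 8 counts in the mutants and 7, 3 and 0 in the controls and did not pass the filter. The gene nanos, which represses translation at the posterior, was at 120, 75.2 and 95.5 against 61.4, 86.3 and 86.8, a log2 fold change of 0.31 over 6 libraries.

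Regulators of maternal mRNAs changed sign with mutant replicate 2. The translational regulators orb and bru1 had log2 fold changes of 1.17 and 1.62 over 6 libraries and of -0.68 and -0.48 without mutant replicate 2, and the granule proteins me31B and tral had 1.76 and 0.98 against -0.53 and -0.26. In orb, bru1, me31B and tral mutant replicate 2 was the highest library, at 323, 426, 376 and 996. Of 28 listed maternal translation and RNA regulators, 22 were tested, 20 of them above 0 over 6 libraries (median log2 fold change 0.91) and 17 below 0 without mutant replicate 2 (median -0.62), beside medians over all genes tested of 0.14 and -0.09. None was called in either fit. Within this list brat, a translational repressor, was at 66.1, 95.8 and 61.6 in the mutants and 37.4, 40.8 and 39.5 in the controls, and wisp, a poly(A) polymerase of the egg, at 50.5, 214 and 36.4 against 26.9, 31.2 and 30.2. Both were above the controls in all 3 mutants, with unadjusted p of 0.0268 and 0.0388 and adjusted p of 0.999 over 6 libraries. Without mutant replicate 2 the log2 fold change of brat went from 0.93 to 0.72 (unadjusted p = 0.0488, adjusted p = 0.276) and that of wisp from 1.78 to 0.58 (unadjusted p = 0.159, adjusted p = 0.435).

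No list had a called member over 6 libraries. Among 36 listed piRNA pathway genes 21 were tested, with 0 called in either fit and a median log2 fold change of 0.29 over 6 libraries and -0.18 without mutant replicate 2. The member with the smallest p was mael, a nuage protein, at 27.2, 41.6 and 21.4 in the mutants and 10.6, 9.59 and 9.21 in the controls. All mutants were above all controls, with a log2 fold change of 1.61 ± 0.50, an unadjusted p of 0.0137 and an adjusted p of 0.98, and of 1.31 with an adjusted p of 0.235 without mutant replicate 2. Of 19 listed Tudor domain genes 10 were tested over 6 libraries and 11 without mutant replicate 2, with 0 called, and the medians were 0.35 and -0.31. In the list of oocyte axis and germ plasm genes, vls, which works with the arginine methyltransferase that modifies Tudor partners, was at 314, 217.7 and 287 against 166, 165 and 184, with adjusted p of 0.999 over 6 libraries and 0.0843 without mutant replicate 2.

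Phf7, a chromatin reader known to promote male identity in germ cells, was at 0, 13.7 and 5.03 in the mutants and 14.4, 31.2 and 23.7 in the controls. Its mutants were all under its controls, but neither fit called it (log2 fold change -1.75 ± 0.97 with an adjusted p of 0.999 over 6 libraries, and -3.09 with 0.129 without mutant replicate 2). Of 23 listed sex determination genes 13 were tested over 6 libraries, with 0 called and a median log2 fold change of 0.16. Yolk protein gene Yp1, which the fat body and follicle cells make, was at 18.1, 293 and 7.54 against 26.9, 9.59 and 11.8, and the yolk receptor gene yl at 41.5, 548 and 32.7 against 61.4, 18.0 and 34.2. In both genes mutant replicate 2 was the highest library, and an antisense feature lies opposite 54.3% of the exon bases of Yp1.

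The ribosomal protein and muscle lists showed the largest turn. All 78 tested ribosomal protein genes had a log2 fold change above 0 over 6 libraries (median 1.42) and 76 of 78 one below 0 without mutant replicate 2 (median -1.29). Their median was 0.01 over 6 libraries when the share term was added, but most listed ribosomal protein genes are themselves counted in that share. The called count was 0 over 6 libraries and 1 without mutant replicate 2, RpL5. Of 15 tested muscle sheath genes 12 were above 0 over 6 libraries (median 0.35) and 15 below 0 without mutant replicate 2 (median -1.57), with bt the 1 called. Hemocyte genes, 5 tested, went from a median of 0.52 to -1.24 with 0 called. Whether the library differences account for these medians was not tested.

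**Figure D4:**
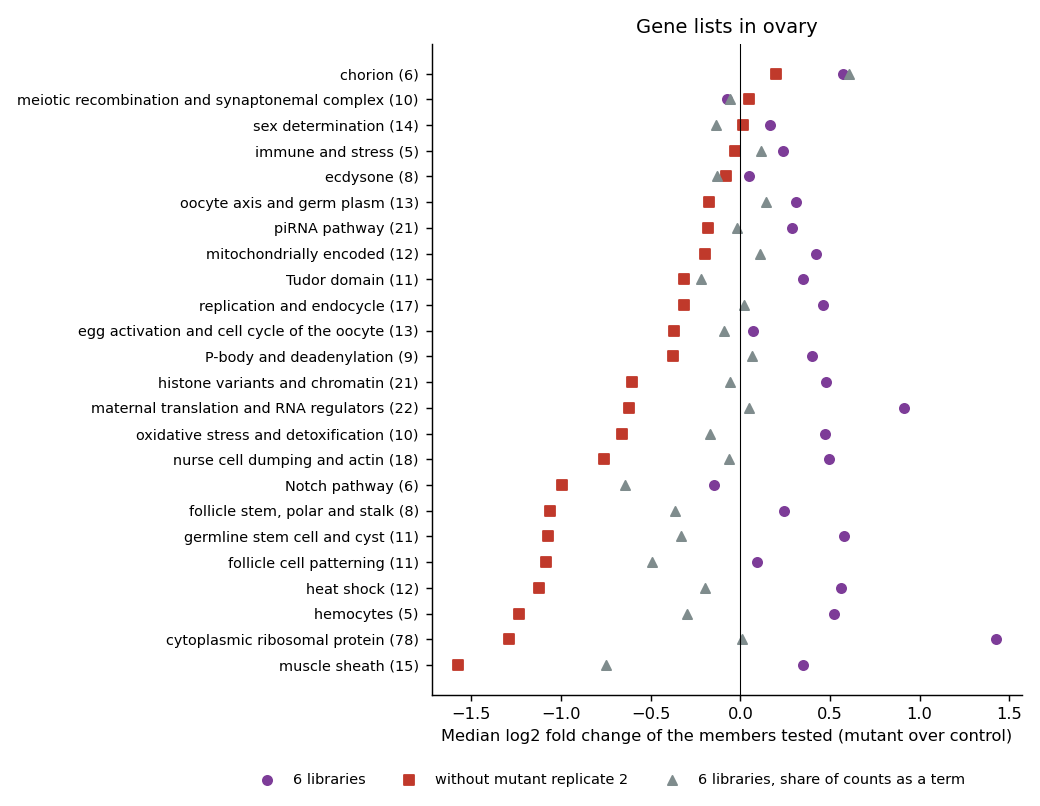
Points give the median log2 fold change (mutant over control) of the tested members of each gene list with at least 5 members tested, over 6 libraries (circles), without mutant replicate 2 (squares) and over 6 libraries with the share of counts as a term (triangles); the number tested without mutant replicate 2 stands in brackets. The ribosomal protein list runs from 1.42 to -1.29 with 0.01 under the share term, and the muscle sheath list from 0.35 to -1.57.

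The 55 called genes were spread over the genome. On X 10 of 908 tested genes were called, on 2L 9 of 801, on 2R 7 of 950, on 3L 15 of 893, on 3R 11 of 1100 and on chromosome 4 there were 2 of 63. Within 2.5 Mb of Tdrd5l 3 of 160 tested genes were called. Of the 55 genes 13 lay within 50 kb of another called gene, forming 8 pairs, of which 6 moved in the same direction. The pairs were looked for after the values were seen. They include every pairing of Abl, Lasp and lncRNA:CR45179, and overlapping loci such as asRNA:CR45016 and Cap-H2. The share of all tested genes with such a neighbour was not computed, so these counts have no background to be read against.

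Testis values for the same genes were available for 48 of the 55. In testis the same test called 92 of 9768 genes (0.942%), and 4 genes were called in both tissues, which is 7.27% of the ovary calls and 4.35% of the testis calls. All 4 moved in the same direction: CG31955 and CG2818 fell in testis by 2.65 and 1.88 on the log2 scale (adjusted p = 0.000142 and 0.0125), and lncRNA:CR45791 and asRNA:CR46047 rose by 4.47 and 1.85 (adjusted p = 0.000246 and 0.00834). Over the 48 genes 25 had the same sign in both tissues. The test of the difference itself, an interaction of genotype and tissue over all 12 libraries, called 3 of 10321 genes (0.0291%), of which stops and lncRNA:CR45179 were among the 55.

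**Figure D5:**
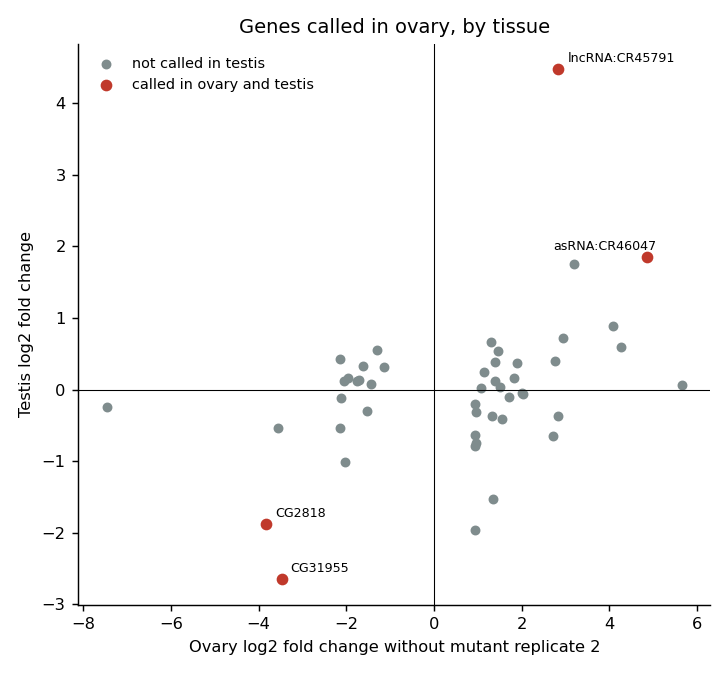
Each point is 1 of the 48 genes called in ovary without mutant replicate 2 and tested in testis, with its log2 fold change in ovary on the horizontal axis and in testis on the vertical axis; red points were called in both tissues. CG31955 and CG2818 lie at the lower left and lncRNA:CR45791 and asRNA:CR46047 at the upper right, while lncRNA:CR45179 (5.65 in ovary) is at 0.06 in testis.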

How the data were processed

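Poly(A)-selected ovary RNA (3 mutant and 3 control libraries) was the material. For the libraries the labels' protocols name a TruSeq kit, which is known not to mark strand. The authors deposited raw read counts per gene, and the submitters' processing notes name FastQC, TopHat2 2.1.1, HTSeq 0.9.1 and DESeq with build BDGP6; no source used here states the strand setting of the counting. Summary rows (96.9% to 98.2% of ovary reads) were left out of library sizes and tests. No 2 libraries agreed within sampling noise.

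Counts were tested with edgeR 4.0.16 (quasi-likelihood test, TMM scaling, filterByExpr with a minimum count of 10, Benjamini-Hochberg adjustment over all genes tested) in R 4.3.3; limma 3.58.1 and DESeq2 1.42.0 were alternatives. Replicate numbers are not stated to pair samples. The share term took, for each library, log2 of the counts in genes lacking an opposite exon over those in genes having one. Opposite exons and coordinates came from an Ensembl annotation of BDGP6: of 17558 features 4463 had an opposite exon, 12789 had none and 306 were not annotated. Symbols of 642 of 676 list entries matched.

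Text genes followed a rule: Tdrd5l, genes called over 6 libraries, up to 3 called or 2 lowest-p members per list, 8 oocyte genes and opposite partners. As 6 libraries called none, genes called without mutant replicate 2 took their place, a choice made after seeing the data. Uncalled list members are named for the lists of germ line and egg alone. The comparison, lists and tests were chosen with earlier results of these data known.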

Additional observations from a re-analysis of the deposited data

Results flagged for a closer look

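The mutant effect on 3 genes differed between ovary and testis by the test of the interaction between genotype and tissue (edgeR's quasi-likelihood test over 12 libraries, testis effect minus ovary effect); tissue and RNA selection cannot be told apart in it. For stops the difference was 6.46 ± 0.85 on the log2 scale (adjusted p = 0.00387): per 1000000 gene counts it was at 4.40, 4.85 and 1.10 in mutant ovaries against 94.9, 119 and 110 in control ovaries, and at 4.17, 8.75 and 5.48 in mutant testes against 1.44, 1.18 and 3.59 in control testes. For lncRNA:CR45179 the difference was -5.41 ± 0.91 (adjusted p = 0.0393): it was at 79.2, 71.6 and 92.0 in mutant ovaries against 4.12, 0 and 1.29 in control ovaries, and at 11.5, 15.7 and 19.5 in mutant testes against 10.1, 16.5 and 17.9 in control testes. For CG6414 the difference was -5.07 ± 0.72 (adjusted p = 0.00629): it was at 86.9, 78.9 and 73.4 in mutant ovaries against 78.4, 68.9 and 27.2 in control ovaries, and at 3.82, 2.92 and 1.83 in mutant testes against 87.7, 58.5 and 60.1 in control testes. CG6414 has another gene opposite 93.0% of its exon bases, so its counts are uncertain. The gene stops also has an exon of another gene on the opposite strand. Its control testis values rest on 2, 2 and 8 counts, and it did not pass the filter in testis alone.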

How the results depend on the processing

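Over 6 libraries the count of 0 calls became 1 with upper quartile scaling, 3 with a filter at 1 CPM, 7 with no filter, 14 with the DESeq2 test and 92 with the share of counts as a term, and ran from 0 to 55 when 1 library was left out (55 without mutant replicate 2). Without mutant replicate 2 the 55 calls became 22 with library size alone, 279 with no filter, 299 with a filter at 1 CPM, 131 with DESeq2, 29 with limma-voom, 27 among genes without an opposite exon alone and 17 with the share term; leaving out 1 more library gave 28 (without control replicate 2) to 124 (without control replicate 1), with 101 without mutant replicate 3. Of the 55 genes, 5 passed under every alternative that tested them and left out mutant replicate 2: asRNA:CR45016, CG6661, lncRNA:CR45179, mir-4948 and teq. With mutant replicate 2 included, 14-3-3zeta (0.0946), CanB2 (0.22) and RpL5 (0.25) changed sign. The difference in the share of counts ran from -4.23 to 7.58 percentage points when 1 library was left out. When 1 of the 6 libraries was left out, log2 fold changes that crossed 0 ran from -0.0162 to 2.97 for yl, -0.32 to 3.29 for Yp1, -0.17 to 2.48 for osk, -0.0131 to 0.48 for nanos, -0.68 to 1.66 for orb, -0.48 to 2.07 for bru1, -0.53 to 2.09 for me31B and -0.26 to 1.24 for tral. The 3 interaction calls became 5 with DESeq2 size factors, 5 with upper quartile scaling and 6 with no filter, and 2 to 6 without 1 ovary library. The replicate block, run though same-numbered libraries did not deviate together (r of -0.53, -0.44 and 0.28), gave 374 calls without mutant replicate 2, 0 over 6 libraries and 6 for the interaction. Without mutant replicate 2, the median log2 fold change changed sign with library size alone for the lists of chorion, fat body, meiotic recombination, neuron, sex determination and spermatheca genes, and that of the yolk list (-0.02) with DESeq2 size factors and upper quartile scaling. Over 6 libraries the medians of the ecdysone, egg activation and follicle cell patterning lists were 0.047, 0.071 and 0.092. With upper quartile scaling they were -0.062, -0.049 and -0.040. The cause of these shifts was not tested. Depth limits low genes: Tdrd5l and bcd were under the filter over 6 libraries.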
